A study of Mus musculus with 15 samples.

Results

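The genes described here are 34 mouse genes of mitochondrial biogenesis, dynamics and quality control, a list taken by name, in left ventricle of the heart. All 34 were found among the 55487 genes counted, and all 34 passed the filter on low counts that left 20718 genes for testing. Libraries were made from the free wall of the left ventricle, taken at its midline, of 15 male mice, 7 with kidney disease and 8 wild-type littermates, housed together, fed normal chow and killed at 225 days. The kidney disease animals carry the genotype Col4a5 Knockdown in the sample labels, while the design text of the study calls them collagen IV knockout, and the labels place them at the equivalent of late-stage chronic kidney disease in people. Col4a5 encodes a collagen chain of basement membranes. The anaesthetic is given as isoflurane in the sample titles and as ketamine with xylazine in the treatment protocol. The libraries are called biological replicates in the design text.

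Mitochondria join and divide continuously. Mitofusins (Mfn1, Mfn2) fuse outer membranes and Opa1 fuses inner membranes and shapes cristae, whereas the GTPase Drp1, encoded by Dnm1l, divides the organelle after it is recruited by Fis1, Mff and the MiD proteins (Mief1, Mief2). Damaged organelles are removed by mitophagy, through Pink1 or through receptors such as Bnip3l and Fundc1. New mitochondria require nuclear factors such as Nrf1 and Gabpa, which act on genes that maintain and transcribe mitochondrial DNA, among them Tfam, Polrmt and Polg. Proteases (Lonp1, Clpp, Oma1, Yme1l1) and the scaffolds of the inner membrane (Phb2, Immt, Chchd3, Chchd10) keep the proteins and folds of the organelle in order. Heart muscle depends on oxidative metabolism, and its mitochondria are densely packed between the contractile filaments.

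Nrf1 and Gabpa are themselves on the list and encode DNA-binding factors, so the promoters of the 34 genes were searched for the core letters of both factors. RefSeq promoters on GRCm38.p6, from 250 bases before to 50 bases after a gene's start, were matched by symbol for 33 of the 34 genes. The ETS and GABP core CCGGAAG, read on both strands, was in 17 of the 33 (51.5%), against 9.93% of all 27025 genes and 12.9% of the 17492 protein-coding genes. The NRF1 core, GCGC and TGCGC with any 1 base between them, also read on both strands, was in 5 of the 33 (15.2%), namely Opa1, Pink1, Polrmt, Oma1 and Immt, against 5.19% of all genes and 7.17% of protein-coding genes. In all, 20 genes held either core, 2 held both (Polrmt and Immt), and 0 matches of the 2 cores overlapped. Stretches upstream of the gene start are shown for 6 genes, a gene of fusion with the NRF1 core, a gene of fusion with the ETS core, and genes of mitochondrial DNA transcription and replication, the matrix deacetylase and the inner membrane scaffold. Capitals mark the core, and CTTCCGG is the ETS core read on the opposite strand. A match describes letters in the window and not a site that is known to be bound.
Opa1, chr16:29579255-29579304, plus strand: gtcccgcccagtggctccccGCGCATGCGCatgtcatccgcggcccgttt
Mfn1, chr3:32529418-32529464, plus strand: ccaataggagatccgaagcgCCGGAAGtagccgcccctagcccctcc
Polrmt, chr10:79746598-79746644, minus strand: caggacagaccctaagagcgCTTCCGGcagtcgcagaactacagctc
Polg2, chr11:106779540-106779586, minus strand: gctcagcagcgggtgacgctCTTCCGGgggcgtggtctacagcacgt
Sirt3, chr7:140882368-140882414, minus strand: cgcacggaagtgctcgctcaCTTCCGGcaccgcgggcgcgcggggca
Phb2, chr6:124712196-124712242, plus strand: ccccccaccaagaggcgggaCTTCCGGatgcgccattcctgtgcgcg

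Library totals ran from 48748379 to 65519279 counts. Col4a5 had 522 to 1111 counts in the kidney disease libraries and 2442 to 3620 in the wild-type libraries, and the ranges did not overlap (log2 change -2.08, adjusted p = 3.0e-09). The libraries split by their most abundant transcript. In 5 of them it was Ttn, the giant sarcomere protein titin (kidney disease libraries 4, 5 and 7, wild-type libraries 6 and 7), and in the other 10 it was mt-Co1, a mitochondrially encoded subunit of cytochrome oxidase. Cardiomyocyte markers summed to between 98741 and 120763 CPM (counts scaled to the library) in kidney disease and between 117348 and 126109 in the wild-type animals, and 0 of 9 passed the test. Of the markers of other cells, 8 of 12 for macrophages, 5 of 8 for fibroblasts and 4 of 5 for B cells rose, and 0 of 7 for endothelial cells, 0 of 6 for smooth muscle and pericytes, 0 of 4 for atrial cardiomyocytes and 0 of 5 for erythroid cells passed. Atrial markers summed to 29.2 to 1378 CPM in kidney disease, against 34.4 to 1169 in wild type, and erythroid markers to 249.6 to 653, against 448 to 846. Skeletal muscle markers, of which 0 of the 4 tested passed, summed to at most 2.65 CPM in any library. Macrophage markers summed to 412 to 589 CPM in kidney disease, against 291 to 359 in wild type. In bulk tissue, fewer cells of a type and less RNA per cell cannot be told apart. Wild type 1 and 2 stood apart in adipocyte markers, with sums of 68.3 and 77.9 CPM where the other 13 libraries held at most 23.0, and 0 of the 4 tested passed.

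The level of each gene per length was read from the deposited FPKM values (counts scaled to the library and to exon length). In wild type the highest median was that of Pink1, the kinase that marks damaged mitochondria, at 280, followed by the inner membrane protein gene Chchd10 at 226 and Mfn2 at 224. The wild-type range of Pink1 (258 to 344) lay above that of Chchd10 (up to 241), while the ranges of Chchd10 and Mfn2 (213 to 274) overlapped. Chchd3 (97.3), Mtfp1 (65.7) and Mfn1 (58.9) came next. At the low end stood Ssbp1 (1.84), Tfb1m (1.65), Nrf1 and, lowest of all, Polg2 (0.724), the small subunit of the mitochondrial DNA polymerase. The wild-type ranges of Ssbp1, Tfb1m and Nrf1 overlapped, and that of Polg2 (0.636 to 1.06) lay below them. This order depends on the exon length used, which for Ssbp1 was 8360 bases, at a mean wild-type level of 16.1 CPM.

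**Figure D1:**
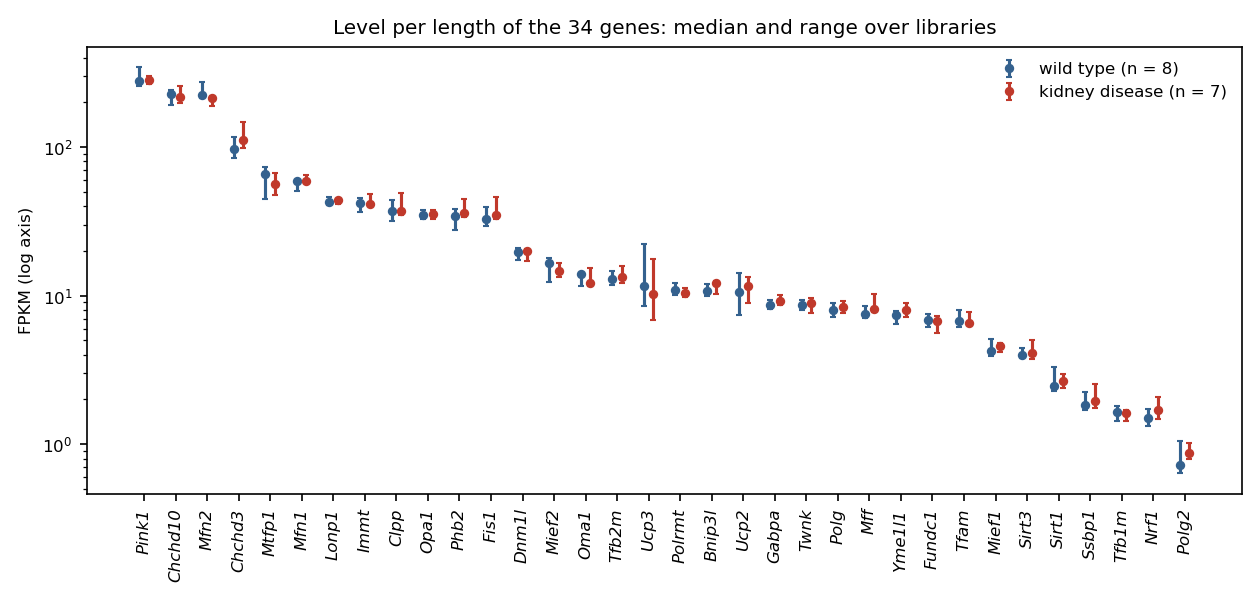
Levels of the 34 genes per length, in FPKM on a log axis, ordered by the wild-type median; points are medians and bars run from the lowest to the highest library of the 8 wild-type (blue) and 7 kidney disease (red) animals. Pink1, Chchd10 and Mfn2 lie at the top and Polg2 at the bottom, and the bars of both groups overlap for each of the 34 genes.

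Pairs that do related work differed in level. Mfn2 exceeded Mfn1 in every library, with an FPKM ratio of 2.91 to 3.87 (median 3.62) in kidney disease, against 3.60 to 4.62 (median 3.86) in wild type. Mief2 exceeded Mief1 at a ratio of 3.09 to 3.74 in kidney disease, against 3.04 to 4.33 in wild type. Chchd10 exceeded Chchd3 at 1.74 to 2.09 in kidney disease, against 2.02 to 2.43 in wild type, and the catalytic Polg exceeded its partner Polg2 at 8.28 to 10.6 and 8.44 to 11.8. All 4 ratios overlapped between the groups, as did that of Ucp3 to Ucp2, which was on either side of 1 (0.592 to 1.51 in kidney disease, 0.819 to 2.09 in wild type). These ratios depend on exon length, 2716 bases for Mief2 against 8106 for Mief1 and 1575 for Chchd10 against 2905 for Chchd3. In mean wild-type CPM, not scaled to length, Mief2 and Mief1 stood at 44.9 and 36.2, and Chchd10 and Chchd3 at 364 and 296. Mfn2 and Mfn1 stood at 1212 and 360, Polg and Polg2 at 88.2 and 3.42, and Ucp3 and Ucp2 at 43.2 and 78.0.

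No gene of the 34 passed the test between kidney disease and wild type. With edgeR's quasi-likelihood test and adjustment over all genes tested, 0 of 34 rose and 0 fell, where 1.28% of all 20718 genes tested were called (0.811% higher, 0.473% lower). The smallest adjusted p was 0.25, for Nrf1. At an unadjusted p below 0.05 there were 6 of the 34 (17.6%), 1 with a higher mean (Nrf1) and 5 with a lower one (Mfn2, Mief2, Mtfp1, Polrmt and Oma1), against 12.4% of all genes (6.84% higher, 5.55% lower) and 16.1% of the 11294 genes in the same range of expression (1.83% of which were called). DESeq2, which called 3.68% of the genes it tested, and limma-voom, whose share of all genes is not given here, also called 0 of the 34. So did fits on libraries led by mt-Co1 alone (0.416% of all genes called), on those led by Ttn alone (0.0134%) and without wild type 1 and 2 (0.728%), and a fit with the split as a covariate (2.52%). The groups overlapped for all 34 genes, and 0.565% of all genes did not overlap (0.386% higher, 0.179% lower). One library bears on the count: without wild type 7, Mtfp1 (log2 change -0.32, SE 0.07, adjusted p = 0.032) and Mief2 (-0.26, SE 0.06, adjusted p = 0.047) passed, in a fit that called 1.9% of all genes, 0.939% lower.

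The measured changes were small. Log2 changes, kidney disease minus wild type, ran from -0.28 (Ucp3) to 0.16 (Nrf1) with a median of -0.03, beside 0.0042 over all genes tested. They were below 0 for 24 of the 34 (70.6%) and for 48.8% of all genes. Fewer than 24 were below 0 on either side of the library split, in fits on 10 and 5 libraries. The share of all genes below 0 in those fits is not given here. Among libraries led by mt-Co1, Mfn1, Mief1, Sirt1, Tfb2m and Sirt3 turned above 0 and no gene turned below it. Among those led by Ttn, Mfn1, Opa1, Dnm1l, Fundc1, Tfam, Tfb2m, Sirt3, Clpp and Immt turned above 0, and Bnip3l and Ssbp1 below. The 95% interval lay within 0.5 of 0 for 33 of the 34, the exception being Ucp3 (-0.74 to 0.19), and within 0.3 for 27, as for 37.1% of all genes. The corresponding share within 0.5 was 58.1% of all genes and 92.3% of the genes in the same range of expression. Between wild-type animals the genes had a median coefficient of variation of 10.7%, from 4.96% for Polg to 34.5% for Ucp3. The lowest count of any of them in any library was 153, for Polg2. Counting error alone (Poisson, at the mean count) came to 58.6% of the variance between kidney disease animals for Polg2 and 67.0% for Tfb1m, and to 28.7% and 26.1% in wild type, so depth limits these 2 genes. For the other 32 genes it came to at most 40.5% in either group (Nrf1, in wild type).

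**Figure D2:**
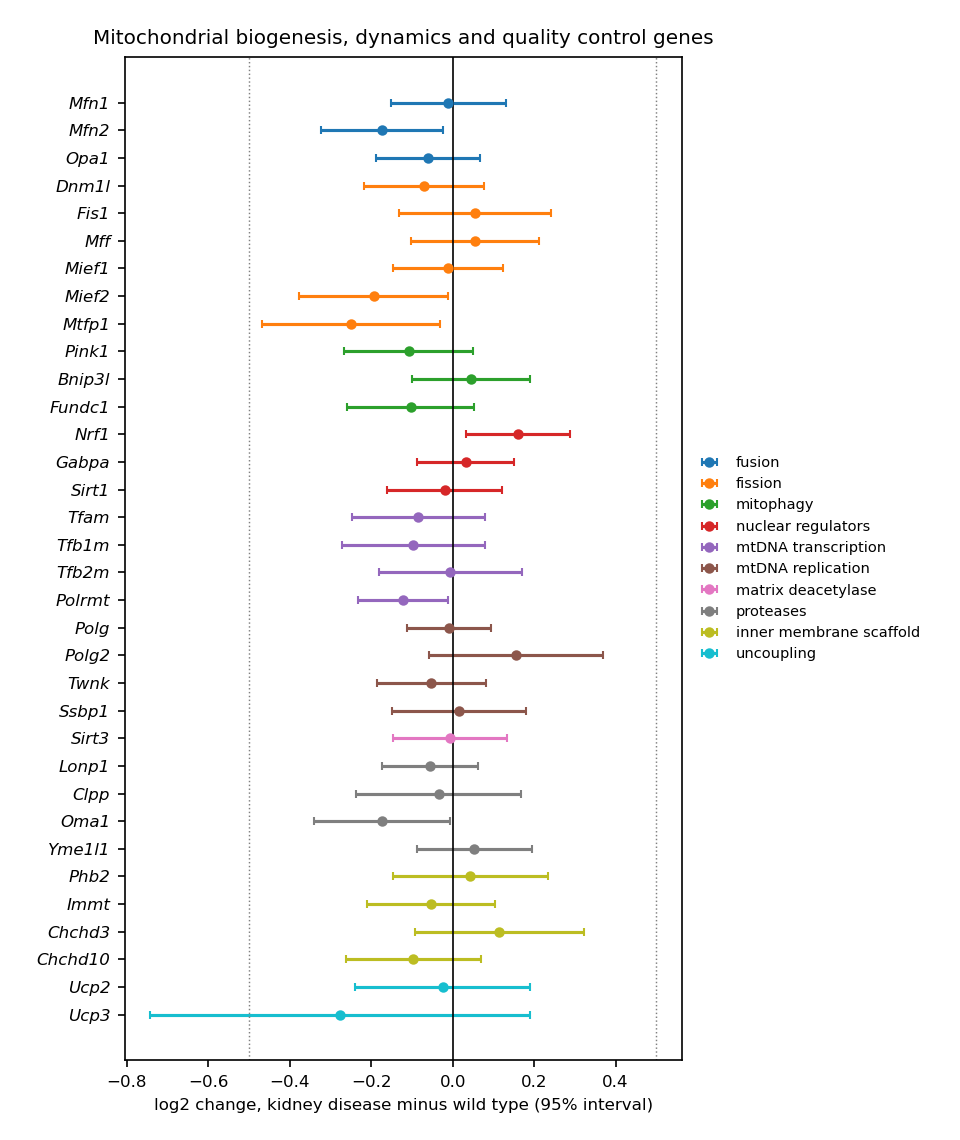
Log2 change of each of the 34 genes, kidney disease minus wild type, with its 95% interval from the edgeR fit, coloured by role; dotted lines mark 0.5 in both directions. Of the 34 intervals, 33 lie within 0.5 of 0, and that of Ucp3 is the widest, from -0.74 to 0.19.

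Of the 3 fusion genes, 0 passed the test. Mfn2 (ENSMUSG00000029020, chr4:147873599-147904704, GRCm38), which also tethers mitochondria to the sarcoplasmic reticulum, had 980 CPM in the lowest, 1097 in the median and 1125 in the highest kidney disease library, and 1036, 1209 and 1538 in wild type. All 7 kidney disease libraries were below the wild-type mean, yet the groups overlapped, since wild type 6, 7 and 8 were below the highest of them. The means were 1075 ± 51.4 (SD, n = 7) and 1212 ± 150 (SD, n = 8), a log2 change of -0.17 (SE 0.07, adjusted p = 0.31). The highest library was wild type 1, and without it the change was -0.12 (adjusted p = 0.45). Wild type 1 also held many adipocyte transcripts, while wild type 2 held more and had 1196 CPM, below the wild-type mean. The part of adipocyte content in the level of Mfn2 was not tested. Among libraries led by mt-Co1 the change was -0.21, and among those led by Ttn it was -0.02. The libraries led by Ttn are only 3 of kidney disease and 2 of wild type, and wild type 7 is 1 of these 2. Each change given for them, here and below, rests on these few libraries. Mfn1 differed by -0.01 (SE 0.07) and Opa1, the inner membrane fusion GTPase, by -0.06 (SE 0.06).

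Fission genes gave 0 of 6 calls. Mtfp1 (ENSMUSG00000004748, chr11:4091480-4095445), an inner membrane protein that promotes division, had 78.6 CPM in the lowest, 94.5 in the median and 117 in the highest kidney disease library, and 72.5, 118 and 137 in wild type. Most wild-type libraries were higher than most kidney disease libraries, but the lowest of all 15 was wild type 7. The log2 change was -0.25 (SE 0.10, adjusted p = 0.32), and it was -0.26 among libraries led by mt-Co1 and -0.04 among those led by Ttn. Of the 2 wild-type libraries led by Ttn, wild type 6 (107 CPM) lay above and wild type 7 below all 3 of kidney disease. Mief2, which recruits Drp1 to the outer membrane, averaged 39.2 ± 3.51 CPM (SD, n = 7) and 44.9 ± 6.51 (SD, n = 8), a log2 change of -0.19 (SE 0.09, adjusted p = 0.36). Wild type 7 was again the lowest library, at 31.3 CPM, and the change was -0.20 among libraries led by mt-Co1 and -0.05 among those led by Ttn. The other recruiting factors had log2 changes of 0.05 for Fis1, 0.05 for Mff and -0.01 for Mief1, with SEs of 0.06 to 0.09, and Dnm1l, which encodes the dividing GTPase itself, had -0.07 (SE 0.07). Dnm1l, Mff and Mief1 each overlap another annotated gene, by 195 to 243 exonic bases.

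Among the 3 mitophagy genes, 0 passed. Pink1 had 665 CPM in the lowest, 725 in the median and 802 in the highest kidney disease library, and 685, 776 and 991 in wild type. The kidney disease range lay largely within that of wild type, whose highest library was again wild type 1. Wild type 2, which held the most adipocyte transcripts, had 705 CPM. The log2 change was -0.11 (SE 0.08, adjusted p = 0.63), and -0.05 without wild type 1 (adjusted p = 0.81). It was -0.11 among libraries led by mt-Co1 and -0.01 among those led by Ttn. Fundc1, an outer membrane receptor, differed by -0.10 (SE 0.07), and Bnip3l, a receptor related to Bnip3, by 0.05 (SE 0.07). Bnip3l has an annotated pseudogene, with which reads may be shared, and Pink1 shares 110 and 69 exonic bases with Gm27646 and Mir7019.

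Nrf1, nuclear respiratory factor 1, had the smallest p of the 34 genes. Its level (ENSMUSG00000058440, chr6:30047988-30153458) was 15.6 CPM in the lowest, 17.4 in the median and 20.1 in the highest kidney disease library, and 14.4, 15.9 and 17.3 in wild type. It was above the wild-type mean in 6 of 7 kidney disease libraries, and the exception, kidney disease 1, was within the wild-type range. The means were 17.8 ± 1.66 (SD, n = 7) and 15.9 ± 0.874 (SD, n = 8), a log2 change of 0.16 (SE 0.06, adjusted p = 0.25). The 3 highest libraries of the 15 were all kidney disease libraries led by Ttn, and the change was 0.10 among libraries led by mt-Co1 and 0.19 among those led by Ttn. The part of this split in the difference was not tested further. Gabpa, the DNA-binding subunit of GABP, differed by 0.03 (SE 0.06), and the deacetylase Sirt1 by -0.02 (SE 0.07). Gabpa shares 397 exonic bases with Atp5j on the opposite strand and Sirt1 shares 65 with Gm16145, and the strand setting of the counting is not known, so reads there cannot be assigned with certainty.

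The 4 genes of mitochondrial DNA transcription gave 0 calls. All 4 had log2 changes below 0, as did 48.8% of all genes tested. Of 13 further genes with this role, 7 were below 0 and 6 above. Polrmt (ENSMUSG00000020329, chr10:79736123-79746581), the mitochondrial RNA polymerase, had 46.1 CPM in the lowest, 47.6 in the median and 52.8 in the highest kidney disease library, and 44.6, 52.5 and 55.8 in wild type. Again wild type 7 held the lowest value and made the groups overlap, as did kidney disease 3 at the top of its group. The log2 change was -0.12 (SE 0.05, adjusted p = 0.34), and it was -0.11 both among libraries led by mt-Co1 and among those led by Ttn. Tfam, which packages mitochondrial DNA and starts its transcription, differed by -0.08 (SE 0.08), Tfb1m, a methyltransferase of mitochondrial ribosomal RNA, by -0.10 (SE 0.08), and the transcription factor Tfb2m by -0.01 (SE 0.08). Tfb1m shares 142 exonic bases with Tiam2 on the opposite strand. The transcripts that this machinery makes were measured in the same libraries. The 13 mitochondrially encoded protein genes summed to 100227 to 130642 CPM in kidney disease, against 108470 to 152609 in wild type, with a median log2 change of -0.19. The libraries led by Ttn held the lowest sums, 100227 to 114101 CPM, and the part of the split in the difference was not tested. Of the 13 genes 1 fell, where 0.473% of all genes tested were called lower. It was mt-Nd4, a subunit of complex I (log2 change -0.32, SE 0.08, adjusted p = 0.044), which was named after its values were seen. Its call passed in 10 of 26 other settings of the analysis.

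Of the 4 genes that copy mitochondrial DNA, 0 passed. Polg2 had 3.47 CPM in the lowest, 3.76 in the median and 4.40 in the highest kidney disease library, and 2.83, 3.28 and 4.30 in wild type. All 7 kidney disease libraries were above the wild-type mean. The groups overlapped only through wild type 1 (3.95 CPM) and wild type 7 (4.30), and the other wild-type libraries lay below all 7. The log2 change was 0.16 (SE 0.10, adjusted p = 0.59), with 0.22 among libraries led by mt-Co1 and 0.01 among those led by Ttn. The catalytic subunit Polg, the helicase Twnk and the single-strand binding protein gene Ssbp1 had log2 changes of -0.01, -0.05 and 0.02, with SEs of 0.05 to 0.08. Polg shares 921 exonic bases with Fanci on the opposite strand, Twnk 507 with Mrpl43 and Polg2 132 with Milr1, with the same doubt about the reads in these stretches. Sirt3, the main deacetylase of the matrix, was nearly level between the groups. It had 22.3 CPM in the lowest, 24.1 in the median and 30.2 in the highest kidney disease library, against 21.0, 25.3 and 26.8 in wild type, a log2 change of -0.01 (SE 0.07, adjusted p = 0.99). Sirt3 overlaps Ric8a and Psmd13 on the opposite strand, by 418 and 342 bases.

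The 4 proteases of quality control gave 0 calls. Oma1 (ENSMUSG00000035069, chr4:103313812-103371868), which cleaves Opa1 under stress, had 23.4 CPM in the lowest, 25.2 in the median and 32.6 in the highest kidney disease library, and 23.2, 31.0 and 32.7 in wild type. The 6 lower kidney disease libraries lay below the wild-type median, and kidney disease 6 lay with the highest wild-type libraries. The log2 change was -0.17 (SE 0.08, adjusted p = 0.38), -0.16 among libraries led by mt-Co1 and -0.05 among those led by Ttn. Yme1l1, the inner membrane protease that also cuts Opa1, differed by 0.05 (SE 0.07). The matrix proteases Lonp1 and Clpp differed by -0.06 (SE 0.06) and -0.03 (SE 0.10).

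Genes of the inner membrane scaffold gave 0 of 4 calls. Chchd10, linked to cristae organisation and to inherited myopathy, had 293 CPM in the lowest, 349 in the median and 404 in the highest kidney disease library, and 280, 374 and 410 in wild type. Both ends of the ranges nearly coincided. The log2 change was -0.10 (SE 0.08, adjusted p = 0.70). Immt, which encodes the core MICOS protein mitofilin, and its partner Chchd3 differed by -0.05 (SE 0.08) and 0.11 (SE 0.10), and the prohibitin Phb2 by 0.04 (SE 0.09). Without kidney disease 6, the highest library for Chchd3, its change was 0.03. Phb2, Immt and Chchd10 each overlap other annotated genes by 25 to 185 exonic bases.

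Uncoupling protein genes, which encode carriers of the inner membrane, gave 0 of 2 calls. Ucp3 (ENSMUSG00000032942, chr7:100472990-100486432), the form most abundant in muscle, had 21.4 CPM in the lowest, 32.0 in the median and 54.5 in the highest kidney disease library, and 28.2, 37.0 and 73.5 in wild type. It varied more between animals than any other of the 34 genes, with a coefficient of variation of 34.5% in wild type and 38.9% in kidney disease. The log2 change of -0.28 (SE 0.22, adjusted p = 0.69) was smaller than this spread and moved with single libraries. It was -0.13 without wild type 3, its highest library, and -0.41 without kidney disease 2. Among libraries led by mt-Co1 it was -0.14, and among those led by Ttn -0.50. Ucp2, which macrophages also express, was 76.8 ± 10.1 CPM (SD, n = 7) and 78.0 ± 13.2 (SD, n = 8), a log2 change of -0.02 (SE 0.10, adjusted p = 0.96), while 8 of 12 macrophage markers rose in the same libraries. The part of that change in cell markers in the level of Ucp2 was not tested. Ucp2 also shares 305 exonic bases with Dnajb13 on the opposite strand.

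**Figure D3:**
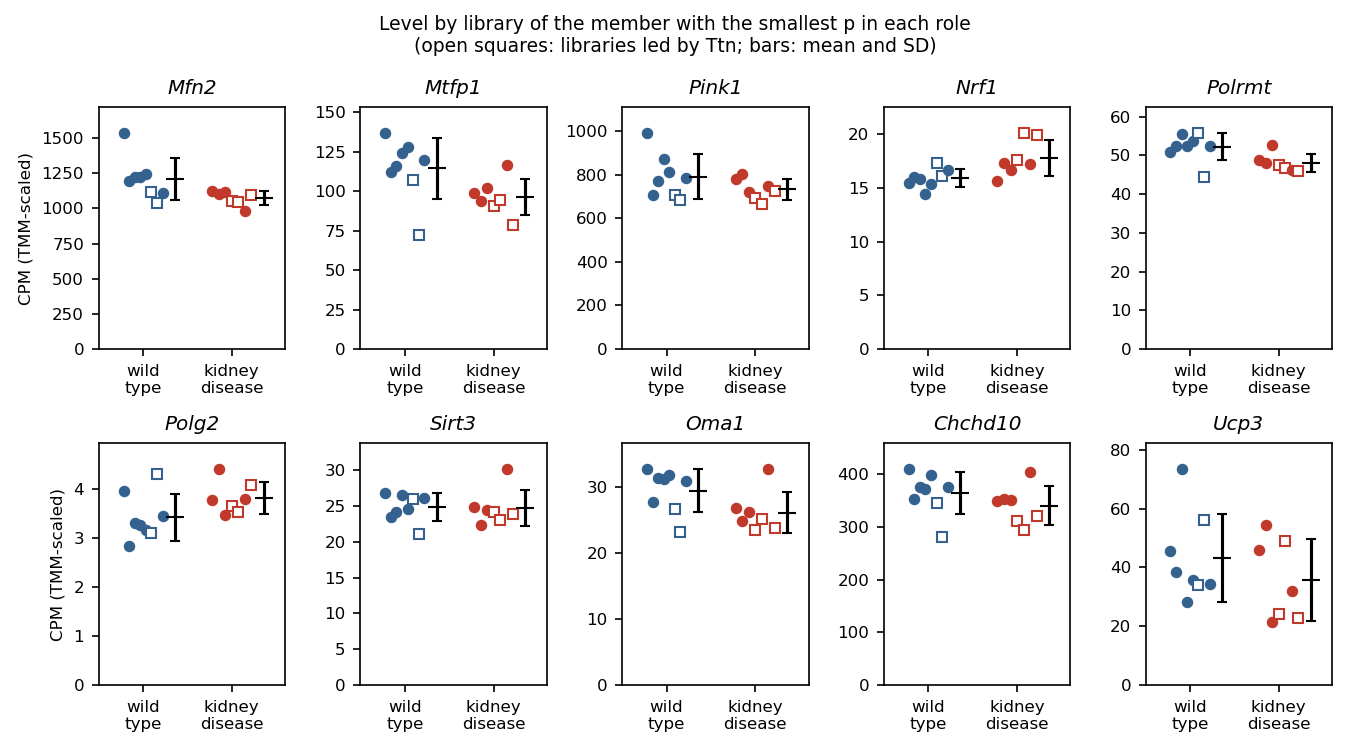
CPM of 10 genes, the one with the smallest p of each role, in each library; points are libraries of wild type (blue, n = 8) and kidney disease (red, n = 7), open squares are those led by Ttn, black bars are group means with SD, and every axis starts at 0. The groups overlap in all 10 panels, and the points of Ucp3 are the most spread.

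A wider list of 117 genes with the same 10 roles was read from the same fit. Of the 114 that passed the filter on low counts, 0 rose and 0 fell, where 1.28% of all genes were called, and 11 (9.65%) had an unadjusted p below 0.05, 5 with a higher and 6 with a lower mean, below the 12.4% of all genes. Their median log2 change was -0.02. By role, the genes with the smallest p were Trak1 (a motor adaptor, -0.17, adjusted p = 0.28), Spire1 (an actin nucleator, 0.15, 0.50), Tbk1 (a kinase of mitophagy receptors, 0.17, 0.15), Perm1 (a muscle regulator of respiration genes, -0.22, 0.16), Lrpprc (a stabiliser of mitochondrial mRNA, -0.10, 0.54) and Top1mt (the mitochondrial topoisomerase, -0.18, 0.35). The others were Sirt5 (a matrix deacylase, -0.12, 0.46), Hspd1 (the matrix chaperonin, -0.26, 0.13), Taz (tafazzin, which remodels cardiolipin, -0.11, 0.45) and Slc25a14 (an uncoupling protein homologue, 0.29, 0.44). Hspd1 averaged 216 ± 19.7 CPM (SD, n = 7) in kidney disease and 259 ± 31.2 (SD, n = 8) in wild type, and it passed with DESeq2 (adjusted p = 0.042, 1.51% of genes lower) and without wild type 7 (adjusted p = 0.016). Perm1 passed without wild type 7 (log2 change -0.26, adjusted p = 0.024). Bnip3 and Atf5, named because they passed with the library split as a covariate, had log2 changes of 0.35 and 0.33 there (adjusted p = 0.013 and 0.027), where 1.62% of all genes were called higher. In the main fit neither passed, and the log2 change of Bnip3 was 0.29 (adjusted p = 0.22).

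Within each group the 34 genes varied with the library. In all 3 kidney disease libraries led by Ttn, 13 of the 34 (38.2%) were below their level in the other 4, as were 11.1% of all genes tested. In both wild-type libraries led by Ttn, 16 of the 34 (47.1%) were below the other 6, as were 12.7% of all genes. Both held for 11 genes (32.4%, against 6.05%), namely Dnm1l, Fis1, Mff, Tfb2m, Lonp1, Clpp, Yme1l1, Phb2, Immt, Chchd3 and Chchd10. Wild type 7 was the lowest wild-type library for 25 of the 34 (73.5%, against 25.4% of all genes), and kidney disease 6 was the highest of its group for 18 (52.9%, against 28% of all genes). These shares are of all genes tested, low counts included. Shares for genes in the same range of expression are not given here, so no excess particular to the 34 genes is shown. Kidney disease 6 also had the lowest cardiomyocyte marker sum of the 15 libraries, 98741 CPM, and the highest macrophage sum, 589 CPM. Its atrial marker sum, 29.2 CPM, and its erythroid sum, 249.6 CPM, were also the lowest of the 15. Wild type 7 had the highest atrial sum of the wild-type libraries, 1169 CPM. The highest atrial sum of the 15 was that of kidney disease 3, 1378 CPM, a library led by mt-Co1. The part of these markers in the pattern was not tested.

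**Figure D4:**
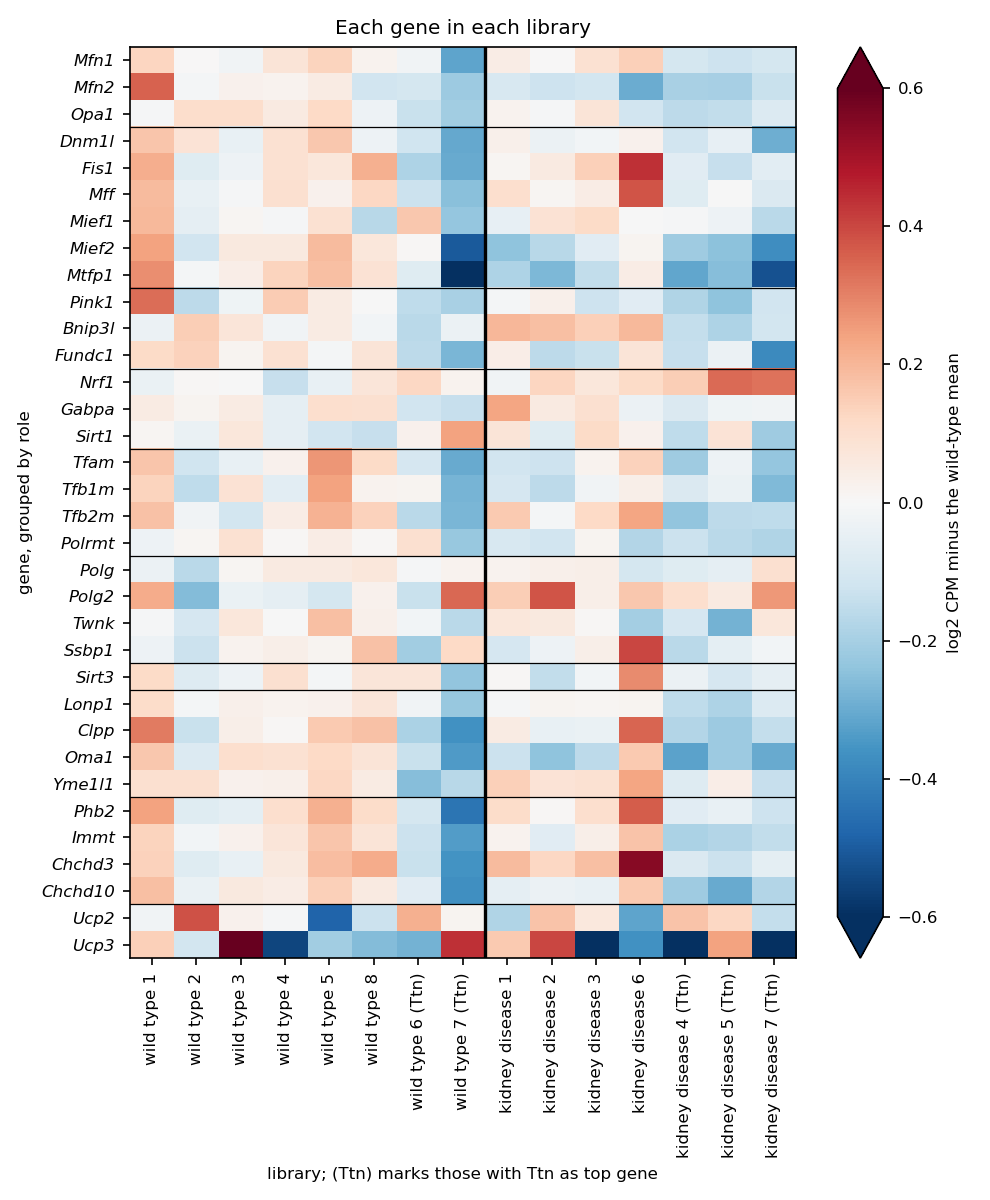
Log2 CPM of each gene in each library minus its wild-type mean, with genes grouped by role and libraries led by Ttn at the right of each group; the colour scale is limited to 0.6 in both directions. Wild type 7 is low for 25 of the 34 genes among wild-type libraries and kidney disease 6 is high for 18 among kidney disease libraries.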

How the data were processed

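Left ventricle RNA from 7 kidney disease and 8 wild-type mice was analysed, with groups taken from the sample labels. Each deposited table holds, per gene, a raw count, a CPM value and an FPKM value made by the authors. Per the submitters' processing notes the tools were bcl2fastq, STAR 2.7.9a, Subread and featureCounts 2.0.3 on GRCm38, and for the counting options, strand included, the sources used here give nothing. Per the labels' protocols, ribosomal RNA was depleted with KAPA RiboErase. The deposited FPKM values were used only for levels between genes. Gene names and positions came from GENCODE M21, in which 55227 of 55487 identifiers were found, and promoters from RefSeq on GRCm38.p6.

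Counts were filtered with edgeR's filterByExpr (minimum count 10), scaled by TMM and tested with the quasi-likelihood F test of edgeR 4.0.16 (R 4.3.3) with group as the only term. Benjamini-Hochberg adjustment covered all 20718 genes tested, at a threshold of 0.05. TMM scaling also underlies each CPM value printed. Libraries of a group differed by more than sampling noise (chi-square per degree of freedom at least 9.16). The code was tested on simulated data.

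The genes and the wider and marker lists were chosen with earlier results of these data known. Named were all 34 genes and, of the wider list, every gene that passed or else the one with the smallest p in its role; 1 gene of each role is shown with its lowest, median and highest library. Alternatives were other scalings, DESeq2 1.42.0, limma-voom (limma 3.58.1), other filters, removal of mitochondrially encoded genes, a replicate block, the split by most abundant transcript and each library left out. Leaving out wild type 1 and 2 together was added after seeing the data.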

Additional observations from a re-analysis of the deposited data

Results flagged for a closer look

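A library stood apart from the rest of its group in 14 of 92 groups of values searched, where chance gives about 1 in 20, or 4.6. The gap to the next value exceeded the 95% limit of Dixon's test. Of the 14, 13 were in the 34 genes. The groups of values share the same 15 libraries, so they are not separate trials, and wild type 7 and kidney disease 6 recur. Wild type 7 was the low library for Mfn1 (288 CPM), Mtfp1 (72.5), Polrmt (44.6) and Lonp1 (165). Kidney disease 6 was the high library for Mff (99.5), Ssbp1 (21.2), Sirt3 (30.2), Clpp (59.6), Oma1 (32.6) and Chchd3 (429). Mfn2 was high in wild type 1 (1538 CPM), Polrmt was high in kidney disease 3 (52.8), and Polg was low in wild type 2 (78.8). The summed smooth muscle and pericyte markers were high in wild type 1 (802 CPM).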

How the results depend on the processing

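Depth limits Polg2 and Tfb1m most, and 7 and 8 animals give log2 SEs of 0.05 to 0.22 for the 34 genes. The count of 0 called among the 34 held in all of the 27 alternatives but the one without wild type 7, so leaving out a library gave 0 to 2. The median log2 change of the 34 stayed within 0.119, the SD of that median over wild-type animals, of its value, and 15 of the 34 genes kept their sign in every setting. The limit of 0.119 is wider than the median itself (-0.03), so a median of the opposite sign could also have met it. The replicate numbers of the labels were not shown to pair the animals: 3 of 7 same-numbered pairs correlated above 0.1, and 2 of 7 kidney disease animals correlated best with their own number. With a replicate block 0 of the 34 passed, and 114 of all genes were called. Over all genes, where 266 were called, DESeq2 called 640, the library split as a covariate 523, libraries led by mt-Co1 alone 86, libraries led by Ttn alone 3, and the set without wild type 1 and 2 called 152. Leaving out each library gave 97 to 388. Of the wider list DESeq2 called 1, the fit with no filter 1 (Ucp1, 975 and 1358 counts in wild type 1 and 2 and at most 10 elsewhere), the covariate 2, libraries led by mt-Co1 1, and leaving out a library 0 to 2.

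Log2 changes whose sign turned ran from -0.10 (Fundc1) to 0.05 (Mff) in the main fit, and the cause was not tested. Without the filter they were Tfb2m 0.0028, Polg 0.0012 and Sirt3 0.0021, and with the replicate block Tfb2m 0.013, Polg 0.0012 and Sirt3 0.0024. With the covariate they were Mfn1 0.026, Mief1 0.00035, Tfb2m 0.046, Sirt3 0.012 and Clpp 0.025, and in libraries led by mt-Co1 Mfn1 0.016, Mief1 0.024, Sirt1 0.083, Tfb2m 0.053 and Sirt3 0.015. In libraries led by Ttn they were Mfn1 0.044, Opa1 0.036, Dnm1l 0.054, Bnip3l -0.055, Fundc1 0.032, Tfam 0.037, Tfb2m 0.031, Ssbp1 -0.047, Sirt3 0.0049, Clpp 0.090 and Immt 0.051. Without wild type 1 and 2 they were Mfn1 0.011, Mief1 0.012, Tfb2m 0.019, Ssbp1 -0.010 and Ucp2 0.040. Leaving out each library gave Gabpa -0.0046 to 0.051, Ucp2 -0.083 to 0.036, Mfn1 -0.051 to 0.0090, Mief1 -0.043 to 0.017, Tfb2m -0.048 to 0.031, Sirt3 -0.061 to 0.016, Clpp -0.11 to 0.013, Ssbp1 -0.059 to 0.046, Sirt1 -0.043 to 0.017, Polg -0.030 to 0.0078, Phb2 -0.015 to 0.080, Fis1 -0.019 to 0.091 and Mff -0.0061 to 0.083.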
